A study of Mus musculus with 12 samples.

Results

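Fmod, Dcn, Slc6a13, Slc6a12, Slc13a4, Slc22a6, Aldh1a2, Wnt6, Igf2 and Igfbp2 are genes known as markers of the fibroblasts of the meninges or as transporters made by those cells. They were chosen by symbol, as the rows of the count table with these names, with earlier results of these data known. They are 10 of 54427 genes listed, and all 10 passed the filter on low counts that left 17227 genes to test. Because the choice already used their levels in these libraries, the differences between groups given here for the 10 genes are a description and not a test.

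The study sequenced hippocampal RNA of mice as 12 libraries, 3 for each of 4 groups, with reads counted per gene. WT mice carried neither genetic change. 5xFAD mice are a transgenic line whose transgenes include mutant human APP, driven in neurons by Thy1 regulatory sequence, that develops amyloid plaques. Ulk1OV mice are labelled as overexpressing Ulk1, the protein kinase that starts autophagy, and 5xFAD;Ulk1OV mice carry both labels. Age, sex, strain background and the construct and promoter of Ulk1OV are not stated in the labels, and no batch, date or day is named there. The labels name tissue from mice but also give "primary cells" as a cell line, and they do not say that the 3 libraries of a group came from separate animals, so the tests measure only the spread between libraries.

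Ulk1, the gene named by the overexpression label, stood at 77.6, 81.8 and 74.1 CPM (counts scaled to a common library total) in WT, at 86.3, 63.5 and 69.96 in 5xFAD, at 102, 87.7 and 84.6 in Ulk1OV, and at 97.1, 98.5 and 85.05 in 5xFAD;Ulk1OV. The Ulk1OV libraries lay above WT without overlap, but the log2 fold change was only 0.23 ± 0.11 and was not called. The difference between 5xFAD;Ulk1OV and 5xFAD was 0.35 ± 0.11, also not called, and their libraries overlapped. The gene counts thus show only a small rise of Ulk1 with the label on both backgrounds, which was not called in either comparison. Ulk1OV is used here as a label only.

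One library's counts disagree with the label it carries, namely 5xFAD;Ulk1OV replicate 3. App, whose human counterpart is in the 5xFAD transgene, stood at 1310 CPM in it, against 2201 to 2667 in the other 5 libraries with a 5xFAD label and 1241 to 1493 in the 6 without one. Prnp stood at 954 CPM in it, against 2067 to 2510 and 900.1 to 1119. Lamr1-ps1, chosen after its values were seen, had 0 counts in it and in the 6 libraries without the label, and 184 to 304 counts in the other 5. Why Prnp and Lamr1-ps1 were higher in those 5 libraries was not tested. Many of the counts and values that removal of 5xFAD;Ulk1OV replicate 3 moved, but not all, are therefore also given without it. Totals ran from 16149992 to 18547132 counts per library. Markers of hippocampal neurons (10 genes such as Prox1 and Wfs1) summed to 751.6 to 1125 CPM in every library.

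The meninges are the layered membranes that cover the brain, and the innermost layer, the pia, follows the surface of the hippocampus and the larger vessels that enter it. Their fibroblasts lay down collagens and small proteoglycans, release retinoic acid and growth factors, and carry transporters that move organic anions, amino acids and osmolytes across the brain's border. A block of hippocampus contains few of these cells beside its neurons and glia.

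Measured per length, Igfbp2 was the most abundant of the 10 transcripts and Igf2 the least. In WT, Igfbp2 stood at 40.2 ± 8.64 CPM per kilobase of exon (SD, n = 3), Fmod at 14.7 ± 5.30, Dcn at 12.2 ± 3.70 and Aldh1a2 at 12.1 ± 3.99. Slc13a4 followed at 9.81 ± 1.95, Slc6a13 at 8.32 ± 2.55, Slc22a6 at 5.47 ± 2.05, Wnt6 at 2.25 ± 1.28, Slc6a12 at 1.05 ± 0.760 and Igf2 at 0.645 ± 0.296. Igfbp2 lay above the next gene by more than their SDs together. Every other pair of neighbours in this order lay within the sum of their SDs. In Ulk1OV the order of the leading genes was another: Igfbp2 stood at 17.7 ± 5.71 CPM per kilobase, Dcn at 12.3 ± 5.89 and Fmod at 3.67 ± 0.977. Exon length was the union over all transcripts of a gene, which is long for Igf2 and may include exons not used in this tissue. How reads over exons shared between genes were counted is not stated, so the place of Igf2 as the least abundant is uncertain.

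Fmod and Dcn encode small leucine-rich proteoglycans that bind collagen fibrils, and they are the matrix genes of the set. Fmod (fibromodulin, GRCm38 chromosome 1, 134037254 to 134048277) stood at 66.1, 48.6 and 31.0 CPM in WT replicates 1, 2 and 3, at 23.8, 24.7 and 29.7 in 5xFAD, at 15.8, 10.03 and 10.5 in Ulk1OV, and at 57.4, 71.5 and 22.1 in 5xFAD;Ulk1OV. The 3 Ulk1OV libraries were the lowest of the 12, the 3 5xFAD libraries lay between them and WT, and the first 2 libraries of 5xFAD;Ulk1OV lay within or above WT while the third lay under 5xFAD. In bulk RNA of this kind, fewer cells of a type and less RNA per cell cannot be told apart. Dcn (decorin, chromosome 10, 97479609 to 97518143) stood at 85.3, 81.7 and 46.2 CPM in WT, at 51.2, 109 and 80.3 in 5xFAD, at 31.8, 90.1 and 92.6 in Ulk1OV, and at 114, 92.3 and 54.4 in 5xFAD;Ulk1OV. For Dcn the 4 groups overlapped, and the spread within each group was wider than any gap between group means. The count ratio of Fmod to Dcn ran from 0.596 to 0.774 in WT, from 0.226 to 0.465 in 5xFAD, from 0.111 to 0.498 in Ulk1OV and from 0.406 to 0.774 in 5xFAD;Ulk1OV.

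Slc6a13 and Slc6a12 encode the GABA transporter GAT2 and the betaine and GABA transporter BGT1, and they are neighbours on chromosome 6. Slc6a13 (121300227 to 121337733) ends 5.34 kb before Slc6a12 begins (121343076 to 121365775), both on the plus strand. Slc6a13 stood at 32.03, 23.1 and 17.4 CPM in WT, at 7.24, 12.2 and 15.7 in 5xFAD, at 6.49, 8.08 and 4.90 in Ulk1OV, and at 32.4, 37.9 and 12.4 in 5xFAD;Ulk1OV. Slc6a12 stood at 5.76, 2.56 and 1.25 CPM in WT, at 0.961, 1.97 and 1.16 in 5xFAD, at 0.312, 0.826 and 0.708 in Ulk1OV, and at 5.87, 3.41 and 1.78 in 5xFAD;Ulk1OV. In both genes the Ulk1OV libraries lay under all WT libraries, and the third 5xFAD;Ulk1OV library lay under the first 2. WT and 5xFAD did not overlap for Slc6a13 but did for Slc6a12, which rested on 5 to 105 counts per library. Slc6a13 had 5.51 to 20.8 times the counts of Slc6a12 over the 12 libraries, with overlapping ranges in the 4 groups.

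Slc22a6 encodes OAT1, which exchanges organic anions, and Slc13a4 encodes a sodium-coupled sulfate transporter. Slc22a6 (chromosome 19, 8618039 to 8628299) stood at 29.9, 21.9 and 13.6 CPM in WT, at 8.93, 11.5 and 15.5 in 5xFAD, at 6.93, 4.84 and 5.88 in Ulk1OV, and at 26.4, 32.6 and 8.24 in 5xFAD;Ulk1OV. It kept the closest relation to Fmod, with 0.373 to 0.560 counts per Fmod count over all 12 libraries, although both genes varied about 7-fold between libraries (6.73-fold for Slc22a6 and 7.12-fold for Fmod, highest over lowest). Slc13a4 (chromosome 6, 35267957 to 35308131) stood at 48.7, 34.3 and 50.4 CPM in WT, at 13, 25.3 and 23.9 in 5xFAD, at 27.1, 10.03 and 9.70 in Ulk1OV, and at 42.6, 50.03 and 18.9 in 5xFAD;Ulk1OV. Within WT, Slc13a4 was highest in replicate 3, where Fmod was lowest, and within Ulk1OV both genes were highest in replicate 1. WT replicate 3 and Ulk1OV replicate 1 also held the most RNA of the choroid plexus, the epithelium that secretes cerebrospinal fluid.

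The 16 choroid plexus markers summed to 6532 CPM in WT replicate 3 and 4439 CPM in Ulk1OV replicate 1, against 50.4 to 391 CPM in the other 10 libraries. Slc13a4 had 1.62 and 1.71 counts per Fmod count in those 2 libraries and 0.546 to 1.02 in the other 10. Igfbp2 had 2.80 and 2.81 there, but also 2.31 and 2.94 in the other 2 Ulk1OV libraries, and 0.905 to 1.86 in the rest. The corresponding ratios of Slc22a6 (0.437 and 0.437), Slc6a13 (0.559 and 0.409) and Aldh1a2 (0.603 and 0.382) lay within the range of the other 10 libraries. The part of choroid plexus RNA in the levels of Slc13a4 and Igfbp2 was not tested.

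**Figure D1:**
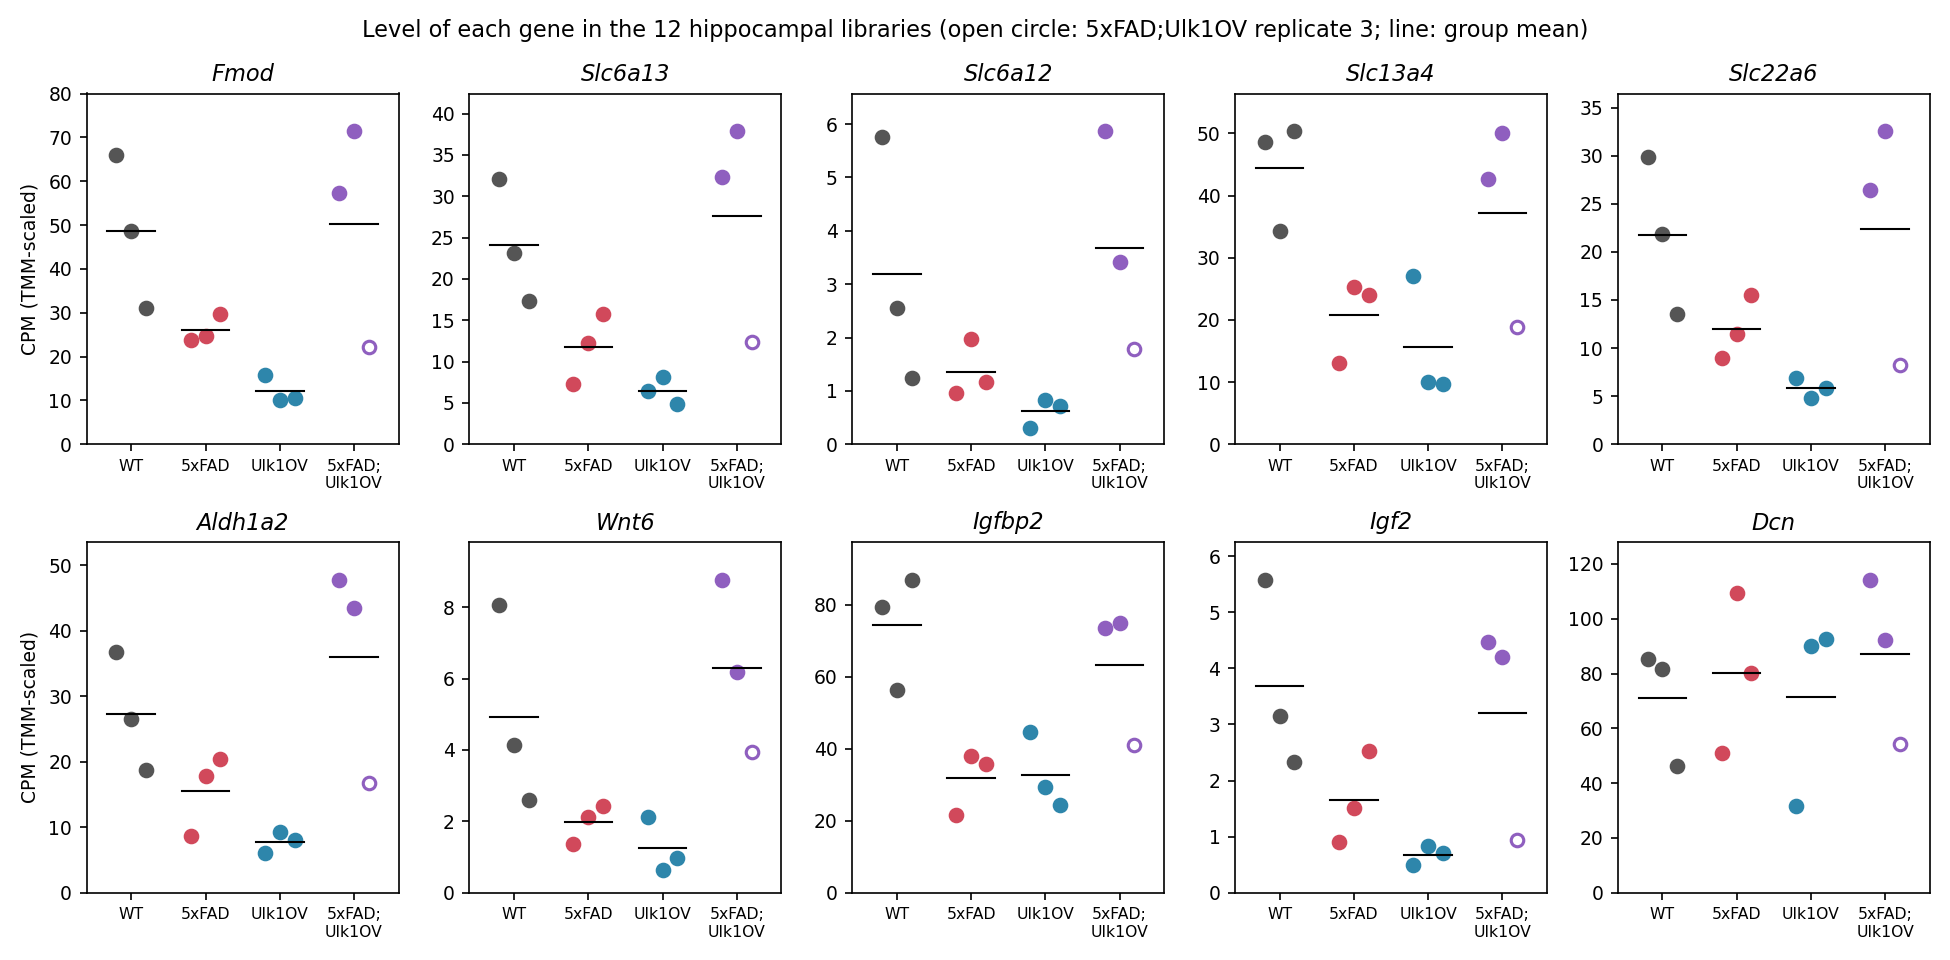
Normalised counts of each gene in every library, in CPM on linear axes from 0, 1 panel per gene, with a point for each of the 3 libraries of a group, a line at the group mean and an open circle for the library labelled 5xFAD;Ulk1OV replicate 3. In every panel but that of Dcn the Ulk1OV points lie under the WT points, for example 10.03 to 15.8 against 31.0 to 66.1 CPM for Fmod.

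Aldh1a2 encodes the dehydrogenase that makes retinoic acid, and it is the enzyme of the set. Aldh1a2 (chromosome 9, 71215789 to 71296243) stood at 36.7, 26.5 and 18.7 CPM in WT, at 8.59, 17.8 and 20.3 in 5xFAD, at 6.05, 9.26 and 8.01 in Ulk1OV, and at 47.8, 43.4 and 16.8 in 5xFAD;Ulk1OV. WT and 5xFAD overlapped, Ulk1OV lay under WT, and the first 2 libraries of 5xFAD;Ulk1OV were the highest of the 12.

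The secreted signals of the set are the WNT ligand Wnt6, the growth factor Igf2 and the IGF-binding protein Igfbp2. Wnt6 (chromosome 1, 74771892 to 74785322) stood at 8.05, 4.14 and 2.61 CPM in WT, at 1.36, 2.13 and 2.43 in 5xFAD, at 2.12, 0.649 and 0.981 in Ulk1OV, and at 8.77, 6.18 and 3.95 in 5xFAD;Ulk1OV. Its WT libraries lay above all 5xFAD and all Ulk1OV libraries, and so did all 3 libraries labelled 5xFAD;Ulk1OV, on 11 to 157 counts per library. Igf2 (chromosome 7, 142650766 to 142666816) stood at 5.58, 3.16 and 2.33 CPM in WT, at 0.904, 1.52 and 2.54 in 5xFAD, at 0.499, 0.826 and 0.708 in Ulk1OV, and at 4.47, 4.21 and 0.946 in 5xFAD;Ulk1OV. Ulk1OV lay under WT, while WT and 5xFAD overlapped. Igf2 had 8 to 95 counts per library. It shares up to 3284 bases of an exon with Gm49394 on its own strand (0 counts in all libraries), beside 5723 bases of exon in all. It also shares exon sequence with the antisense gene Igf2os (56 counts over the 12 libraries). How reads over shared exons were assigned is not stated, so Igf2 may be undercounted.

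Igfbp2 (chromosome 1, 72824503 to 72852474) stood at 79.5, 56.4 and 87.0 CPM in WT, at 21.5, 38.1 and 35.8 in 5xFAD, at 44.5, 29.4 and 24.2 in Ulk1OV, and at 73.6, 75.02 and 41.0 in 5xFAD;Ulk1OV. Its means in 5xFAD and Ulk1OV were close together, 31.8 ± 8.96 and 32.7 ± 10.5 CPM (SD, n = 3 each). Every WT library lay above every library of those groups, and the third 5xFAD;Ulk1OV library stood just above 5xFAD.

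Comparisons between groups came from edgeR's quasi-likelihood test fitted to all 12 libraries and all 17227 genes, and a gene was called at a Benjamini-Hochberg adjusted p under 0.05. Log2 fold changes are given with their standard errors. The 4 comparisons share groups (WT enters 2 of them, and so do 5xFAD, Ulk1OV and 5xFAD;Ulk1OV), so their values are set side by side and not counted as separate evidence. The median log2 fold change over all genes tested lay between -0.013 and 0.003 in each comparison.

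In Ulk1OV against WT, 9 of the 10 genes fell and Dcn was not called. Igf2 had a log2 fold change of -2.43 ± 0.57, Slc6a12 of -2.35 ± 0.60, Fmod of -2.0 ± 0.37, Wnt6 of -1.98 ± 0.49 and Slc6a13 of -1.90 ± 0.39. Slc22a6 followed at -1.89 ± 0.42, Aldh1a2 at -1.81 ± 0.39, Slc13a4 at -1.52 ± 0.41 and Igfbp2 at -1.18 ± 0.28. Fmod was thus 4.01-fold lower and Igfbp2 2.27-fold lower. The log2 fold change of Dcn was 0.01 ± 0.38. Of all genes tested, 3.04% were called lower in this comparison, and 14.5% had all 3 Ulk1OV libraries under all 3 WT libraries, as these 9 had. Without the library labelled 5xFAD;Ulk1OV replicate 3 the count was again 9, with 4.17% of all genes called lower. The count of 9 depended on the libraries in the fit. It fell to 0 without Ulk1OV replicate 3, WT replicate 1 or WT replicate 2. It was 4 without Ulk1OV replicate 1 or Ulk1OV replicate 2, and 2 without both libraries rich in choroid plexus RNA. Over all genes tested, the refits that gave 0 also called 0 genes. Those without Ulk1OV replicate 1, without Ulk1OV replicate 2 and without both libraries rich in choroid plexus RNA called 241, 669 and 34 genes lower. The log2 fold changes of the 9 were as large or larger without those 2 libraries, for example -2.48 ± 0.41 for Fmod, -2.88 ± 0.49 for Wnt6 and -2.07 ± 0.41 for Slc13a4. Without Ulk1OV replicate 1 the value of Slc13a4 was -2.17. Mitochondrially encoded genes made up 6.396% to 8.76% of all counts in Ulk1OV and 5.05% to 5.42% in WT, and their part in the result was not tested.

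In 5xFAD against WT the same 9 genes had lower means and none was called. Wnt6 differed by -1.32 ± 0.46 on the log2 scale, Igfbp2 by -1.22 ± 0.28, Slc6a12 by -1.22 ± 0.55, Igf2 by -1.15 ± 0.52 and Slc13a4 by -1.10 ± 0.40. Slc6a13 differed by -1.04 ± 0.37, Fmod by -0.90 ± 0.35, Slc22a6 by -0.86 ± 0.40, Aldh1a2 by -0.81 ± 0.38 and Dcn by 0.18 ± 0.38. edgeR called 0% of all genes tested lower here, with 2139 genes of 17227, among them these 9, at an unadjusted p under 0.05. DESeq2 called 1 of the 10, Igfbp2, and called lower 0.578% of the 16277 genes to which it gave an adjusted p. With no filter on low counts edgeR called 9 of the 10 and 551 genes in all, but that fit replaced each gene's own spread between libraries by the trend over genes (for Fmod, a quasi-dispersion of 0.66 in place of 7.92). Its calls therefore take no account of how much the libraries of a group differ in that gene. For Fmod, Slc6a13, Slc13a4, Wnt6 and Igfbp2 the 3 libraries of 5xFAD lay under the 3 of WT without overlap, as did 9.05% of all genes tested. Mitochondrially encoded genes made up 5.52% to 6.98% of all counts in 5xFAD, above the 5.05% to 5.42% of WT, and their part in the result was not tested. The choroid plexus markers had negative log2 fold changes here in 16 of 16 genes, with a median of -2.33. That rested on 1 library: the markers summed to 6532 CPM in WT replicate 3, but to 77.6 and 124 CPM in WT replicates 1 and 2. The 5xFAD libraries stood at 50.4 to 194 CPM.

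When 5xFAD;Ulk1OV was compared with 5xFAD, all 10 genes had higher means and none was called. The log2 fold change was 1.67 ± 0.46 for Wnt6, 1.43 ± 0.55 for Slc6a12, 1.23 ± 0.37 for Slc6a13, 1.21 ± 0.38 for Aldh1a2 and 0.99 ± 0.28 for Igfbp2. It was 0.95 ± 0.35 for Fmod, 0.95 ± 0.52 for Igf2, 0.90 ± 0.40 for Slc22a6, 0.84 ± 0.40 for Slc13a4 and 0.12 ± 0.38 for Dcn. edgeR called 0.0464% of all genes higher, and 7 of the 10 had an unadjusted p under 0.05. DESeq2 called 1, Wnt6, and called higher 2.86% of the 13334 genes to which it gave an adjusted p. The fit with no filter on low counts, which has the same fault, called 8 of the 10 and 901 genes in all. Wnt6 and Igfbp2 were higher without overlap, as were 10.7% of all genes. Without the library labelled 5xFAD;Ulk1OV replicate 3 the log2 fold changes grew to 1.93 for Wnt6, 1.78 for Slc6a12, 1.60 for Slc6a13 and 1.56 for Aldh1a2. They were then 1.40 for Igf2, 1.32 for Fmod, 1.32 for Slc22a6, 1.24 for Igfbp2, 1.18 for Slc13a4 and 0.38 for Dcn. Still none was called (0.0568% of all genes called higher).

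**Figure D2:**
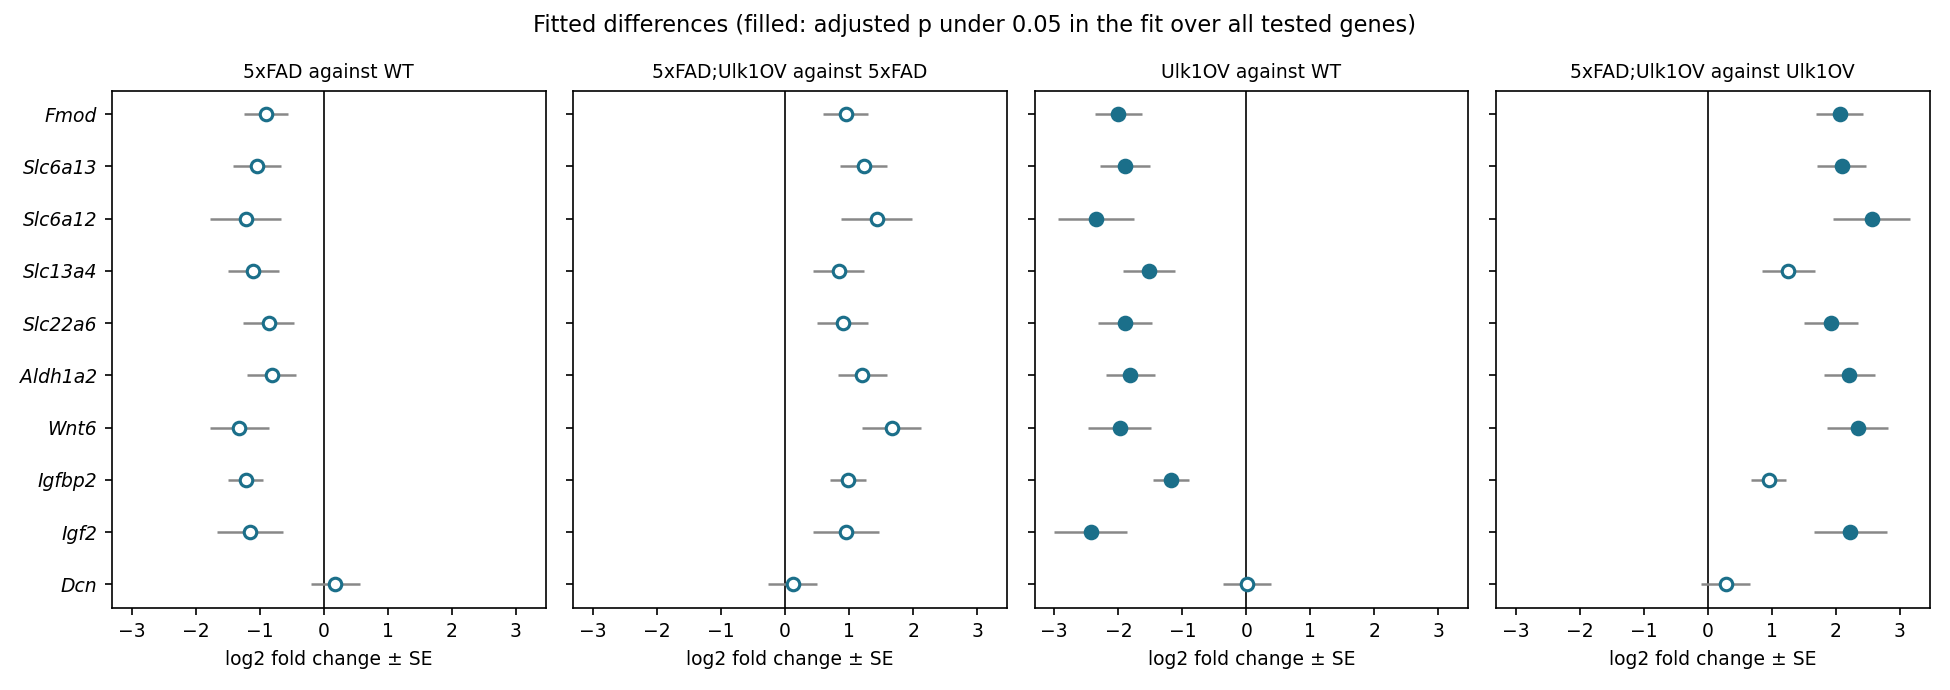
Log2 fold change of each gene (rows) in the 4 comparisons (panels), as points with bars of 1 standard error, filled where the gene was called. Dcn lies near 0 throughout, while the other 9 lie between -2.43 and -1.18 in Ulk1OV against WT and between 0.95 and 2.56 in 5xFAD;Ulk1OV against Ulk1OV.

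Between the groups with the Ulk1OV label, 7 genes rose in 5xFAD;Ulk1OV against Ulk1OV. Slc6a12 had a log2 fold change of 2.56 ± 0.60, Wnt6 of 2.34 ± 0.48, Igf2 of 2.23 ± 0.57 and Aldh1a2 of 2.21 ± 0.40. Slc6a13 rose by 2.09 ± 0.39, Fmod by 2.06 ± 0.37 and Slc22a6 by 1.93 ± 0.42. Slc13a4 (1.26 ± 0.41), Igfbp2 (0.95 ± 0.28) and Dcn (0.28 ± 0.38) were not called. Of all genes tested, 3.67% were called higher, and 14.2% were higher without overlap, as the 7 called were. Without the library labelled 5xFAD;Ulk1OV replicate 3, 9 of the 10 were called, and 5.38% of all genes. The count fell to 0 without 5xFAD;Ulk1OV replicate 1, 5xFAD;Ulk1OV replicate 2 or Ulk1OV replicate 3, and to 3 without both libraries rich in choroid plexus RNA. Over all genes tested, the refits that gave 0 called 0 genes, and that without both libraries rich in choroid plexus RNA called 98 higher. The log2 fold changes of the 9 genes other than Dcn without those 2 libraries ran from 1.24 ± 0.29 for Igfbp2 to 2.93 ± 0.47 for Wnt6, with Fmod at 2.29 ± 0.39, Slc6a13 at 2.09 ± 0.46 and Slc6a12 at 2.26 ± 0.58. Mitochondrially encoded genes made up 4.17%, 4.04% and 5.97% of all counts in 5xFAD;Ulk1OV replicates 1, 2 and 3, and their part in the result was not tested.

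The interaction asks whether the difference of 5xFAD from its control is the same with and without Ulk1OV. It was positive and called for the 9 genes other than Dcn, with log2 values from 2.17 ± 0.39 for Igfbp2 to 3.78 ± 0.82 for Slc6a12. Fmod stood at 2.95 ± 0.51 and Aldh1a2 at 3.02 ± 0.54, while Dcn stood at 0.11 ± 0.54. The background was 6.80% of all genes called positive and 5.96% called negative. Without the library labelled 5xFAD;Ulk1OV replicate 3 the count was again 9, with 8.27% of all genes called positive, and it was 8 or 9 whichever single library was left out. The values of the 9 without 5xFAD;Ulk1OV replicate 3 ran from 2.44 for Igfbp2 to 4.13 for Slc6a12, with Fmod at 3.34.

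Other fibroblast genes were followed in a list of 29 tested genes, among them collagens, transcription factors of the meninges and further transporters, all of them above 0 counts in every library. In Ulk1OV against WT, 8 of the 29 fell, beside 3.04% of all genes tested. The median log2 fold change was -1.14, against -1.89 for the 10 genes. Col3a1, a chain of fibrillar collagen, fell by 2.56 ± 0.57 on the log2 scale, the organic cation transporter Slc22a2 by 2.30 ± 0.56, and the matrix protein Mgp by 2.15 ± 0.50. In 5xFAD;Ulk1OV against Ulk1OV 11 of 29 rose (median 1.30), beside 3.67% of all genes. They were led by Col3a1 at 2.37 ± 0.57 and the retinoic acid-binding protein Crabp2 at 2.25 ± 0.55. In 5xFAD against WT edgeR called 0 of 29 (15 at an unadjusted p under 0.05, 0 by DESeq2), with a median of -0.74. In 5xFAD;Ulk1OV against 5xFAD it also called 0 of 29 (15 at an unadjusted p under 0.05, 3 by DESeq2), with a median of 0.80. The interaction was called for 16 of 29, beside 6.80% of all genes called positive. Without the library labelled 5xFAD;Ulk1OV replicate 3 the counts were 15 lower in Ulk1OV against WT, 19 higher in 5xFAD;Ulk1OV against Ulk1OV and 24 for the interaction. Without both libraries rich in choroid plexus RNA the first 2 of these counts were 0 and the interaction count 15. The count in Ulk1OV against WT was also 0 without Ulk1OV replicate 3, WT replicate 1 or WT replicate 2, where 0 of all genes were called. That in 5xFAD;Ulk1OV against Ulk1OV was 0 without 5xFAD;Ulk1OV replicate 1, 5xFAD;Ulk1OV replicate 2, Ulk1OV replicate 1 or Ulk1OV replicate 3. Of these refits, the one without Ulk1OV replicate 1 called 207 genes higher over all genes tested, and the others called 0. The interaction count ran from 10 to 24 whichever single library was left out.

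**Figure D3:**
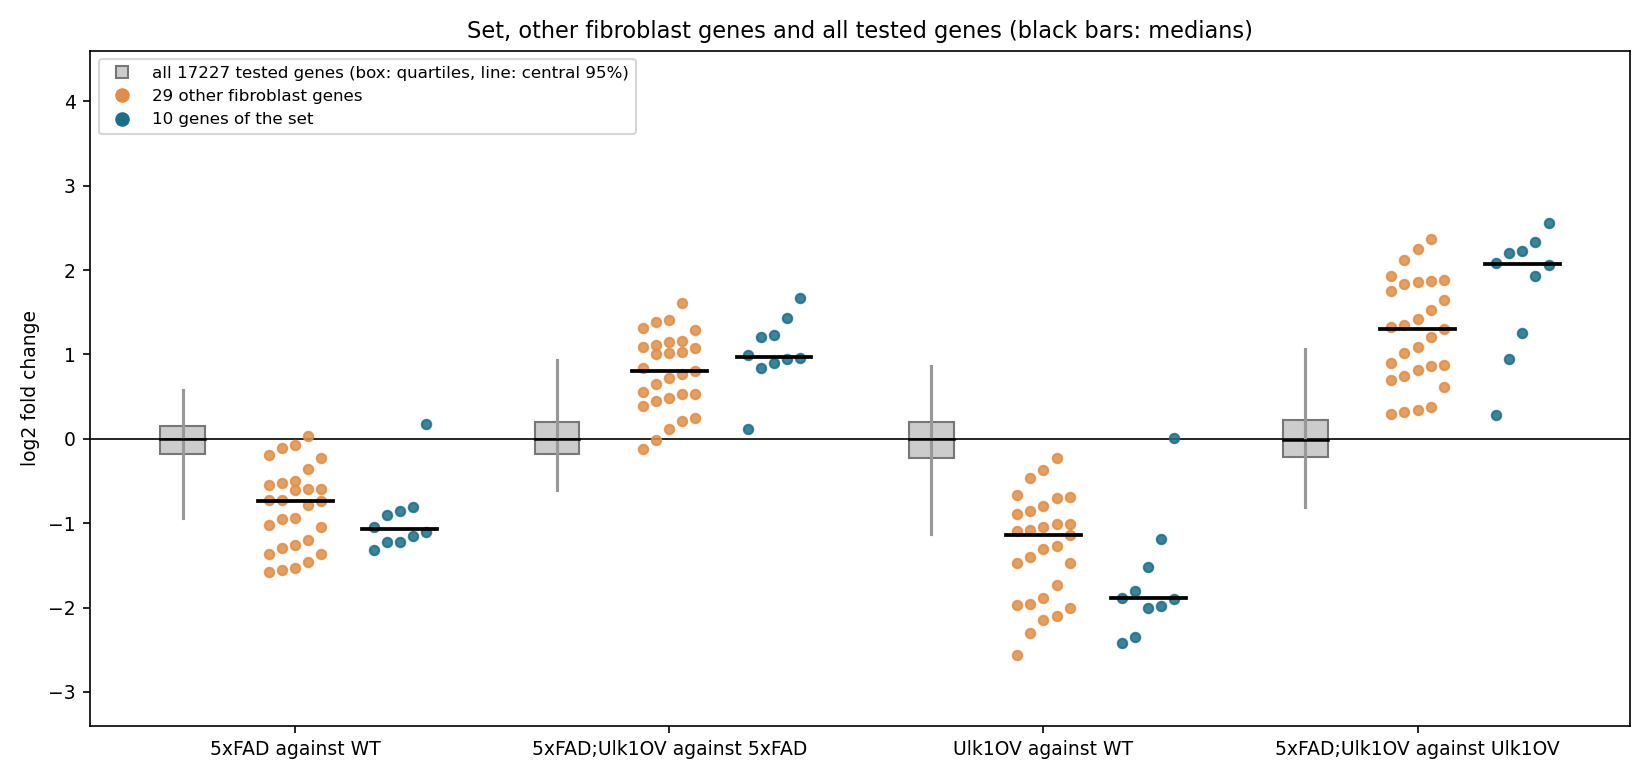
Log2 fold changes in the 4 comparisons for the 29 other fibroblast genes and the 10 genes of the set, 1 point per gene with a black bar at the median, beside all 17227 genes tested (box for the quartiles, line for the central 95%). In Ulk1OV against WT the medians of the 10 and the 29 genes lie at -1.89 and -1.14, beside 0.003 for all genes.

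The transporters of the set were set beside 19 tested solute carriers of the same 3 families. Of these, 4 fell in Ulk1OV against WT and 4 rose in 5xFAD;Ulk1OV against Ulk1OV, with list medians of -0.33 and 0.25. The shares of all genes tested were 3.04% called lower and 3.67% called higher. The called carriers were thus 4 of 19 in each comparison. They included Slc6a20a, a proline transporter (-2.16 ± 0.43 and 2.09 ± 0.43), the organic anion transporter Slc22a8 (-1.76 ± 0.34 and 1.95 ± 0.34) and the dicarboxylate transporter Slc13a3 (-1.30 ± 0.29 and 1.31 ± 0.29). In 5xFAD against WT and 5xFAD;Ulk1OV against 5xFAD edgeR called 0 of 19 (4 and 3 at an unadjusted p under 0.05, 0 and 2 by DESeq2). Leaving out the library labelled 5xFAD;Ulk1OV replicate 3 gave 6 lower in Ulk1OV against WT, 6 higher in 5xFAD;Ulk1OV against Ulk1OV and 1 higher in 5xFAD;Ulk1OV against 5xFAD.

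The retinoic acid pathway around Aldh1a2 held 18 tested genes. In Ulk1OV against WT 2 of them fell, the receptors Rarg (-0.67 ± 0.15) and Rxrb (-0.64 ± 0.14), and in 5xFAD;Ulk1OV against Ulk1OV 2 rose, Crabp2 and Rxrb (0.70 ± 0.14). Crabp2 also belongs to the list of 29 fibroblast genes and is counted in both lists. So do Bgn, Lum and Ogn of the proteoglycan list below. The interaction was called for 5 of 18, among them the retinol uptake receptor Stra6 (1.72 ± 0.45), beside 6.80% of all genes called positive. Of 15 tested genes of the IGF pathway, the binding proteins Igfbp7 (-0.92 ± 0.24) and Igfbp6 (-0.70 ± 0.18) fell in Ulk1OV against WT, and Igfbp6 rose in 5xFAD;Ulk1OV against Ulk1OV (0.77 ± 0.18). Of 29 tested genes of the WNT pathway, 1 fell in Ulk1OV against WT and rose in 5xFAD;Ulk1OV against Ulk1OV, the WNT inhibitor Nkd1 (-0.78 ± 0.14 and 0.69 ± 0.14). That is a share near the 3.04% of all genes called lower and the 3.67% called higher in these comparisons, and so no result about the pathway in them. Of 16 other small leucine-rich proteoglycans and TGF-beta genes tested, 1 rose in 5xFAD;Ulk1OV against Ulk1OV, the proteoglycan Omd (1.68 ± 0.46). edgeR called 0 of them in Ulk1OV against WT (5 at an unadjusted p under 0.05, 1 by DESeq2). In 5xFAD;Ulk1OV against Ulk1OV a single call in a list of 15 or 16 genes is likewise no result about the IGF or proteoglycan list. In Ulk1OV against WT the IGF calls were 2 of 15, beside the 3.04%. The interaction was positive and called for 2 of 15 IGF, 3 of 29 WNT and 1 of 16 proteoglycan genes, beside 6.80% of all genes. Without the library labelled 5xFAD;Ulk1OV replicate 3 these were 2, 6 and 5, beside 8.27%. The proteoglycan call was lost in 7 of the 12 refits that leave out 1 library. In 5xFAD against WT edgeR called 0 genes of these 4 lists, with 5, 2, 4 and 2 at an unadjusted p under 0.05 in the order given and 1, 0, 0 and 0 called by DESeq2. In 5xFAD;Ulk1OV against 5xFAD it also called 0, with 7, 1, 5 and 2 at an unadjusted p under 0.05 and 2, 1, 1 and 1 called by DESeq2. With the library labelled 5xFAD;Ulk1OV replicate 3 left out, the retinoic acid list had 4 lower in Ulk1OV against WT and 4 higher in 5xFAD;Ulk1OV against Ulk1OV. The proteoglycan list then had 1 lower and 2 higher, and 1 IGF gene was called higher in 5xFAD;Ulk1OV against 5xFAD. Without Ulk1OV replicate 3, WT replicate 1 or WT replicate 2, 0 of all genes tested were called in Ulk1OV against WT. The counts in the solute carrier, retinoic acid, IGF and WNT lists were thus 0. For the IGF list they were also 0 without 5xFAD replicate 3, 5xFAD;Ulk1OV replicate 1, 5xFAD;Ulk1OV replicate 2 or Ulk1OV replicate 2. Without 5xFAD;Ulk1OV replicate 1, 5xFAD;Ulk1OV replicate 2 or Ulk1OV replicate 3, 0 of all genes tested were called in 5xFAD;Ulk1OV against Ulk1OV. The counts of these 4 lists and the proteoglycan list were thus 0. For all of them but the solute carriers they were also 0 without Ulk1OV replicate 1, and the call of Omd's list was lost in 9 of the 12 refits that leave out 1 library. Without both libraries rich in choroid plexus RNA the counts in Ulk1OV against WT were 0 in all 5 lists. In 5xFAD;Ulk1OV against Ulk1OV they were then 1 for the solute carriers, 1 for the IGF list and 0 for the other 3.

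Markers of other cells at the border of the hippocampus were read in the same libraries. The 14 endothelial markers summed to 226 to 291 CPM in WT, 222 to 235 in 5xFAD, 229 to 259 in Ulk1OV and 250 to 280 in 5xFAD;Ulk1OV, and 3 of them (Esam, Itm2a and Tek) fell in Ulk1OV against WT. The 10 mural cell markers summed to 164 to 215, 105 to 166, 112 to 128 and 141 to 218 CPM, and Vtn (-1.51 ± 0.32) and Pdgfrb (-0.71 ± 0.15) fell in Ulk1OV against WT. The 7 markers of perivascular macrophages summed to 14.4 to 35.97, 13.3 to 20.7, 10.03 to 16.5 and 13.4 to 23.2 CPM, and edgeR called 0 of 7 in Ulk1OV against WT (4 at an unadjusted p under 0.05, 1 by DESeq2). Blood markers (5 genes) summed to 94.8 to 208, 52.0 to 131, 54.5 to 136 and 100.1 to 161 CPM, and 1 of them, Hbb-bt, fell in Ulk1OV against WT (-2.03 ± 0.46). The 8 ependymal markers summed to 68.9 to 101, 28.7 to 92.9, 109 to 137 and 88.1 to 158 CPM. The ependymal sums of Ulk1OV lay above those of WT, with 0 of 8 markers called by edgeR (2 at an unadjusted p under 0.05, 0 by DESeq2). Of these markers Tagln was at 0 in some Ulk1OV library and Ms4a7 in some 5xFAD library, and none was at 0 in all 12. In 5xFAD;Ulk1OV against Ulk1OV 1 marker each of endothelium, mural cells and blood rose, Itm2a (0.95 ± 0.21), Vtn (1.66 ± 0.32) and Hbb-bt (2.3 ± 0.46). These were 1 of 14, 1 of 9 and 1 of 5 markers tested, beside 3.67% of all genes called higher. A single call is no result about such a list. The interaction was positive and called for 5 of 14 endothelial markers, 3 of 9 mural markers tested and 1 of 5 blood markers, beside 6.80% of all genes. Cldn5 stood at 1.98 ± 0.46 and Vtn at 2.5 ± 0.45. Where Ulk1OV replicate 3, WT replicate 1 or WT replicate 2 was left out, 0 of all genes were called in Ulk1OV against WT. The calls of these 3 lists there were thus 0, as they were without both libraries rich in choroid plexus RNA. For endothelium and blood they were also 0 without Ulk1OV replicate 1. Those in 5xFAD;Ulk1OV against Ulk1OV fell to 0 without 5xFAD;Ulk1OV replicate 1, 5xFAD;Ulk1OV replicate 2, Ulk1OV replicate 1 or Ulk1OV replicate 3. Of these refits, only the one without Ulk1OV replicate 1 called any gene of all tested. With the library labelled 5xFAD;Ulk1OV replicate 3 left out, 3 mural markers were lower in Ulk1OV against WT and 2 higher in 5xFAD;Ulk1OV against Ulk1OV. Of the endothelial markers, 1 was then higher and 3 lower in the first comparison, and 2 were higher and 1 lower in the second. Some endothelial, mural and blood markers were thus called in the same comparisons as the 10 genes. edgeR called 0 perivascular macrophage and 0 ependymal markers, but these 2 lists differed in direction. In 5xFAD;Ulk1OV against Ulk1OV 7 of 7 macrophage markers were above 0, against 2 of 8 ependymal markers. For the interaction these were 7 of 7 and 5 of 8. In Ulk1OV against WT the list medians were -0.63 for endothelium, -0.61 for mural cells, -0.64 for blood and -0.85 for macrophages. The ependymal median was 0.56, with 8 of 8 markers above 0. Above 0 in that comparison were also 3 of 14 endothelial, 2 of 9 mural, 1 of 5 blood and 0 of 7 macrophage markers. Of all genes tested, 3.04% were called lower there. The part of these cells in the levels of the 10 genes was not tested. Of the 10 hippocampal neuron markers, the interaction was negative and called for Zbtb20 (-0.75 ± 0.23) and Calb1 (-0.54 ± 0.17). No more than 1 of them was called whichever single library was left out, with 0 in 6 of the 12 refits and 0 without both libraries rich in choroid plexus RNA. Of the 16 choroid plexus markers edgeR called 0 in each comparison, and DESeq2 also 0. At an unadjusted p under 0.05 there were 9 in 5xFAD against WT, 0 in 5xFAD;Ulk1OV against 5xFAD, 0 in Ulk1OV against WT, 1 in 5xFAD;Ulk1OV against Ulk1OV and 0 for the interaction. Their median log2 fold changes were -2.33, 0.74, -0.38 and -1.4 in the 4 comparisons. In 5xFAD;Ulk1OV against Ulk1OV 16 of 16 were negative, where those of the 10 genes were positive. The choroid plexus sums there were 4439, 253 and 83.7 CPM in Ulk1OV replicates 1, 2 and 3, and 81.4 to 391 CPM in 5xFAD;Ulk1OV. That difference thus lay in 1 library.

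Across the 12 libraries the 9 genes other than Dcn varied together. Pearson's r of log2 CPM ran from 0.64 to 0.98 over their 36 pairs, with a median of 0.86. The 9 pairs with Dcn had r from 0.02 to 0.62, with a median of 0.38. With the group means removed the values were 0.09 to 0.97 (median 0.68) for the 36 pairs and -0.10 to 0.85 (median 0.45) for the pairs with Dcn. Pairs share the same libraries, groups and scaling, so the values are a description. The pairs of Slc13a4 and Igfbp2 with the 7 other genes were looser (median 0.78) than the 21 pairs among the 7 (median 0.91). Slc13a4 and Igfbp2 correlated with each other at r = 0.95, and at 0.96 with the group means removed.

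Outside the set, the genes whose log2 CPM followed the mean of the 10 most closely over the 12 libraries were Slc13a3 and Itm2a (r = 0.989 each), Vtn (0.986), Ptgds (0.983) and Islr (0.979). Emp3, Slc22a8, Slc6a20a, Itih2 and Hcar1 followed with r from 0.968 to 0.978. Slc6a13 and Aldh1a2 were each closest to Vtn (0.984 and 0.983), Slc22a6 to Slc13a3 (0.987), and Igfbp2 to Col18a1 (0.969). Dcn had no gene as close, with Pgrmc1 at 0.889 and Nr2f2 at 0.878.

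**Figure D4:**
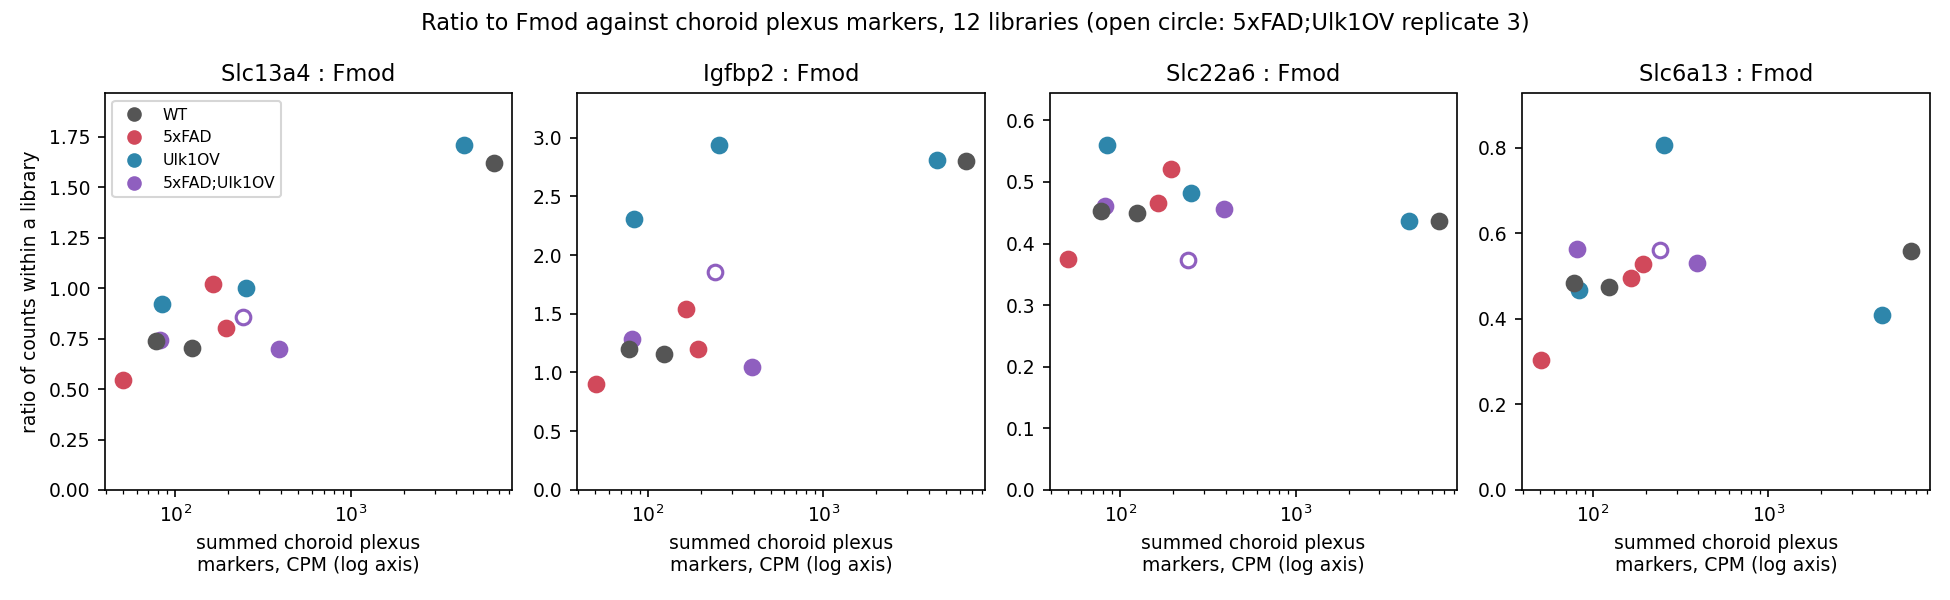
Counts of Slc13a4, Igfbp2, Slc22a6 and Slc6a13 per Fmod count (vertical axes from 0) in each library, plotted against the summed CPM of 16 choroid plexus markers on a log axis, with colours for the groups and an open circle for the library labelled 5xFAD;Ulk1OV replicate 3. The 2 libraries at 4439 and 6532 CPM have the 2 highest Slc13a4 ratios (1.71 and 1.62), while Slc22a6 stays between 0.373 and 0.560 in all 12.

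The promoters of 4 genes that fell together in Ulk1OV against WT are shown because their base composition differs widely. RefSeq windows on GRCm38.p6 run from 250 bases before to 50 bases after a transcript start, and 19 such windows of 32851 belong to 9 of the 10 genes, with none for Dcn. Capitals mark each CG dinucleotide, and the sequences run 5′ to 3′ on the gene's strand, which is the plus strand for all 4. The Fmod window (chr1:134037004-134037303) holds 3 CG and the Slc22a6 window (chr19:8617746-8618045) holds 2. The Aldh1a2 window (chr9:71215539-71215838) holds 50 CG and the Wnt6 window (chr1:74771642-74771941) holds 31.
Fmod: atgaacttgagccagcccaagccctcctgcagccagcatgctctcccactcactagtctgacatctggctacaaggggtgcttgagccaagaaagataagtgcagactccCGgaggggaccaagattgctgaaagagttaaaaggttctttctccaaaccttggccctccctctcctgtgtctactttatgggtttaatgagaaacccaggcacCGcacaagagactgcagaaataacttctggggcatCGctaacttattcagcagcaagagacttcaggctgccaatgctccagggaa
Slc22a6: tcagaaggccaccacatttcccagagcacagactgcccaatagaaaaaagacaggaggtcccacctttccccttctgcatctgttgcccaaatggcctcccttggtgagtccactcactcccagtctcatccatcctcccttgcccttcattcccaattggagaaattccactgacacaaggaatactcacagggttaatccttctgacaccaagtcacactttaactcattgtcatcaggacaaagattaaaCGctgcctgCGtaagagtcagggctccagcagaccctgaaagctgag
Aldh1a2: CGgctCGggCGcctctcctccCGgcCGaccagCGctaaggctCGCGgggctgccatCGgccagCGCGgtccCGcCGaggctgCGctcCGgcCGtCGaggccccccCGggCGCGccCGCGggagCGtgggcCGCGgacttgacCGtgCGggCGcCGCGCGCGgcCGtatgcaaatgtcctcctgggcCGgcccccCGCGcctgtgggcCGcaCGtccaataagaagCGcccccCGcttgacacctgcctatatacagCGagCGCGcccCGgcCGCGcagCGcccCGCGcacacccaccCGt
Wnt6: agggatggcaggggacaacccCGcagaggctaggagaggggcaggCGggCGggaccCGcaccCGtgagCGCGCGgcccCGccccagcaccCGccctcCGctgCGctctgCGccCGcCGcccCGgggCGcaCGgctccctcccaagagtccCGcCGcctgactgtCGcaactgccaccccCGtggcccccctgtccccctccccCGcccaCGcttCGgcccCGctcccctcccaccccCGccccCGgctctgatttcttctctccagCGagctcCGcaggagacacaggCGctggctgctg

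The median window of the 32851 has 7 CG. Of all windows, 0.855% hold at least the 50 CG of Aldh1a2, 10.6% at least the 31 of Wnt6, and 31.4% and 23.3% at most the 3 of Fmod and the 2 of Slc22a6. G and C make up 78.0% of the Aldh1a2 window, 76.7% of the Wnt6 window, 51.0% of the Fmod window and 50% of the Slc22a6 window. Short motifs were searched on both strands. GGGCGG, the Sp1 box, was found in 6 of the 19 windows, those of Slc6a13, Slc13a4, Wnt6, Igfbp2 and Igf2, and in 35.7% of all windows. AGGTCA, the core element bound by retinoid receptors, was found in 3 of 19, in windows of Slc6a13, Slc6a12 and Igf2, and in 16.3% of all windows. No window of the 19 held GTAAACA, bound by forkhead factors, which 3.65% of all windows hold. None held CTTTGAT, which TCF and LEF factors bind (3.73% of all windows), or TATAAA, the core of the TATA box (13.6% of all windows). No motif searched contains another, and GGGCGG contains a CG and so depends on the CG content of a window. A match is a description of these letters and not a site.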

How the data were processed

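The authors deposited 1 table of read counts per gene for 12 hippocampal libraries, not normalized. The submitters' processing notes list HISAT2, featureCounts, SAMtools, Trim Galore, FastQC and DESeq2 with no version, and mm10 as the genome. Settings, gene annotation and use of strand: not given in the sources used here. Groups follow the genotype labels.

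edgeR 4.0.16 in R 4.3.3 filtered genes by filterByExpr (17227 of 54427 kept), scaled libraries by TMM and fitted its quasi-likelihood test to all 12 libraries with 1 mean per group, with Benjamini-Hochberg adjustment over all genes tested. Each standard error was computed as the absolute log2 fold change over the root of the F statistic. The fit was tested on simulated data. Positions and exon lengths come from the GENCODE annotation of GRCm38, the build called mm10, and promoter windows from RefSeq.

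The 10 genes and all gene lists were chosen with earlier results of these data known. The 10 are always named. Of every other list, up to 3 called genes per comparison with a mean of at least 1 CPM and the largest log2 fold changes were eligible, and App, Prnp, Lamr1-ps1 and Ulk1 served to compare libraries with labels. Some results are not reported here. Likeness used Pearson's r of log2 CPM among tested genes with a mean of at least 1 CPM. Of 30 other fibroblast genes listed, Ccn3 is the newer symbol of Nov and has no row of its own. Replicates of a group differed beyond sampling noise (chi-square per degree of freedom 6.78 to 27.5). With 3 libraries against 3, the smallest two-sided p of an exact permutation test is 0.1.

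Other settings tried were the test of DESeq2 1.42.0, its size factors within edgeR, testing without the low-count filter, a fit restricted to the libraries compared, a replicate block, and leaving out each library in turn. Leaving out both libraries rich in choroid plexus RNA was chosen after seeing the data.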

Additional observations from a re-analysis of the deposited data

Results flagged for a closer look

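The difference between 5xFAD and its control was not the same with and without Ulk1OV for 9 of the 10 genes, by the interaction term of edgeR's fit. Of all genes tested, 6.80% were called positive and 5.96% negative. The values below include the library labelled 5xFAD;Ulk1OV replicate 3, whose counts disagree with its label. Without that library the count was again 9, beside 8.27% of all genes called positive. The interaction was 2.95 ± 0.51 (log2, SE) for Fmod, 3.13 ± 0.54 for Slc6a13, 3.78 ± 0.82 for Slc6a12 and 2.36 ± 0.57 for Slc13a4. It was 2.79 ± 0.58 for Slc22a6, 3.02 ± 0.54 for Aldh1a2, 3.66 ± 0.67 for Wnt6, 2.17 ± 0.39 for Igfbp2 and 3.38 ± 0.78 for Igf2. In each of the 9, 5xFAD lay under WT on average and 5xFAD;Ulk1OV lay above Ulk1OV. The genes were chosen with these data known, so the values are a description of the 12 libraries.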

How the results depend on the processing

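Over 801 refits of the 45 values of the 9 genes other than Dcn, under every alternative run, 801 kept their sign, whereas 71 of 89 refits of Dcn did. These refits reuse the libraries in which the genes were chosen, and Dcn lay near 0, so the sign counts are a description and no test. Counts of calls moved more. Over all genes tested edgeR called 0 in 5xFAD against WT, 8 in 5xFAD;Ulk1OV against 5xFAD, 891 in Ulk1OV against WT, 1051 in 5xFAD;Ulk1OV against Ulk1OV and 2197 for the interaction. DESeq2 called 136, 713, 1843 and 1994 in the first 4, and 1 of the 10 genes in each of the first 2. With no filter on low counts the counts were 551, 901, 2079 and 2097, with 9 and 8 of the 10 genes called in the first 2. In that fit of 31643 genes edgeR's prior degrees of freedom were infinite, against 5.48 with the filter, so a gene's own spread between libraries did not enter its test, and these counts are not comparable with the others. DESeq2's size factors gave 18 genes in 5xFAD;Ulk1OV against 5xFAD. With only the libraries compared, the counts were 2 in 5xFAD against WT, 0 in 5xFAD;Ulk1OV against 5xFAD and 430 in 5xFAD;Ulk1OV against Ulk1OV. Without both libraries rich in choroid plexus RNA (WT replicate 3 and Ulk1OV replicate 1, chosen after seeing the data), 32 genes were called in 5xFAD;Ulk1OV against 5xFAD, 58 in Ulk1OV against WT, 171 in 5xFAD;Ulk1OV against Ulk1OV and 1414 for the interaction, with 2 of the 10 in Ulk1OV against WT and 3 in 5xFAD;Ulk1OV against Ulk1OV. Leaving out 1 library at a time gave 0 to 39, 0 to 260, 0 to 1294, 0 to 1629 and 974 to 2596 genes in the 5 comparisons, and 0 to 0, 0 to 0, 0 to 9, 0 to 9 and 8 to 9 of the 10. Fewer libraries enter those fits, and the cause was otherwise not tested. The replicate numbers in the labels did not pair the libraries: over 18 pairs with the same number, deviations from the group means had r from -0.18 to 0.22, with 4 over 0.1, and 5 of 12 libraries correlated best with their own number. With a replicate block, edgeR called 0 genes in 5xFAD against WT and in 5xFAD;Ulk1OV against 5xFAD, 1033 in Ulk1OV against WT, 1206 in 5xFAD;Ulk1OV against Ulk1OV and 2259 for the interaction, with 0, 0, 9, 6 and 9 of the 10. Slc6a12, Igf2 and Wnt6 rested on as few as 5, 8 and 11 counts in a library, which limits the precision of their values.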
